A study of Mus musculus with 12 samples.

Results

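The GIMAP genes were followed through 2 steps of the lymphoid lineage in bone marrow (BM) at 2 ages. The 8 genes, Gimap1, Gimap3, Gimap4, Gimap5, Gimap6, Gimap7, Gimap8 and Gimap9, were chosen by name among the 32285 genes of the deposited table, and 8 of 8 were found there. All 8 also passed the filter on low counts that left 13367 genes for testing. RNA came from wild-type C57BL6/J mice of 1 month (1MO) or 3 months (3MO) of age, with no other treatment in any group. In each age group, Ly6d- common lymphoid progenitors (CLPs), which precede commitment to the B lineage, and Flk2+ multipotent progenitors (MPPs), which lie upstream of CLPs, were sorted from lineage-depleted BM of long bones. Each of the 4 groups (1MO CLP, 3MO CLP, 1MO MPP and 3MO MPP) had 3 libraries from independent experiments, numbered #1 to #3, and the numbers were not treated as pairs.

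GIMAP proteins are GTPases of the immunity-associated protein family. They are small guanine-nucleotide-binding proteins, several of them anchored in intracellular membranes, and they are best known for keeping lymphocytes alive and quiescent. Their genes lie side by side in a cluster and are expressed mainly in lymphocytes and other blood cells. The comparisons ask whether the level of each gene differed between 1MO and 3MO in either progenitor, and between the progenitors at either age.

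Sequencing depth was 8889083 to 20677785 estimated counts per library, with a median of 13208993. Marker genes followed the labels of the sorted populations. Of 18 lymphoid priming genes, 12 were higher in CLPs than in MPPs at each age by edgeR, with a median log2 difference of 1.36 at 1MO and 1.15 at 3MO. Of 16 stem and megakaryocyte-erythroid genes, 10 were lower in CLPs at each age, with medians of -1.73 and -1.53. The 3 genes of smallest p in each list at 1MO were Blnk, Rag1 and Il7r (log2 difference 4.48, 4.42 and 5.19) and Hlf, Fgd5 and Mecom (-3.91, -4.29 and -3.93). Rag1, which encodes part of the antigen receptor recombinase, also fell with age in CLPs, from 263 ± 64.8 to 96.5 ± 25.4 CPM (counts scaled to a common library size after TMM normalization, SD, n = 3, log2 difference -1.44, adjusted p = 0.0428 in edgeR). Cd3e, which encodes part of the T cell receptor complex, was at 0 in 9 of 12 libraries and at 0.270 CPM at most. The whole list of 14 T cell markers summed to 54.0 to 62.8 CPM in 1MO CLPs, 60.5 to 75.4 in 3MO CLPs, 42.0 to 61.6 in 1MO MPPs and 37.3 to 50.2 in 3MO MPPs. Of the 7 tested, 4 were lower at 3MO by log2 difference in CLPs and 5 in MPPs (51.2% and 51.8% of all genes). Trbc2, a T cell receptor gene, averaged 5.38 CPM in 1MO and 0.906 in 3MO CLPs, and 2.24 in 1MO and 0.142 in 3MO MPPs. Cd6 averaged 24.0 CPM in 1MO and 32.2 in 3MO CLPs, and 6.31 in 1MO and 7.46 in 3MO MPPs. Both genes were chosen after their values were seen. The 12 NK and ILC markers summed to 42.3 to 65.2 CPM in 1MO CLPs, 28.7 to 51.8 in 3MO CLPs, 22.4 to 33.0 in 1MO MPPs and 19.0 to 34.8 in 3MO MPPs, and Ncr1 reached 0.283 CPM at most. Endothelial Cdh5 reached 1.78 CPM at most, while the sum of all 12 endothelial markers, to which Pecam1 (chosen after its values were seen) added 121 to 299 CPM, was 406 to 451 CPM in 1MO CLPs, 372 to 407 in 3MO CLPs, 315 to 388 in 1MO MPPs and 281 to 341 in 3MO MPPs. The 10 myeloid markers summed to 1158 to 1512 CPM in 1MO CLPs, 1027 to 1377 in 3MO CLPs, 822 to 1001 in 1MO MPPs and 757 to 1192 in 3MO MPPs, so that at 1MO the CLPs lay above the MPPs, and Mpo was at 498 to 1140 CPM. The 10 B cell markers summed to 99.0 to 139 CPM in 1MO CLPs against 51.5 to 70.4 in 3MO CLPs, and to 19.9 to 21.8 in 1MO MPPs against 8.99 to 21.1 in 3MO MPPs. The 10 bone stroma markers summed to 311 to 703 CPM in 1MO CLPs against 94.9 to 128 in 3MO CLPs, and to 68.3 to 173 in 1MO MPPs against 62.2 to 115 in 3MO MPPs. Of these, Col1a1 was at 223 ± 153 CPM in 1MO and 0.639 ± 1.11 in 3MO CLPs, and at 27.3 ± 23.9 in 1MO and 1.94 ± 3.06 in 3MO MPPs (SD, n = 3). The 10 erythroid markers summed to 110 to 180 CPM in the 4 libraries numbered #3 and to 22.8 to 45.2 CPM in the other 8. The part of these cells in the GIMAP values was not tested.

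In the GENCODE M21 annotation of GRCm38, the family occupied 123.6 kb of chromosome 6, from 48647234 to 48770851. The order along the chromosome was Gimap8, Gimap9, Gimap4, Gimap6, Gimap7, Gimap1, Gimap5 and Gimap3. Gimap6 and Gimap3 lie on the minus strand and the other 6 on the plus strand. All are protein coding genes of few exons, from 2 in the longest coding transcript of Gimap6, Gimap7 and Gimap9 to 5 in that of Gimap8 and Gimap3. Gimap8 (ENSMUSG00000064262, 48647234 to 48660875) has the longest coding transcripts, with a median of 3138 bases, and Gimap7 (ENSMUSG00000043931, 48718621 to 48724636) the shortest, with a median of 846 bases.

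Gimap3 and Gimap5 are close paralogs, and this bears on how their reads can be told apart. Their coding sequences were identical at 87.9% of 902 aligned bases, against 64.9% for the next most similar pair, Gimap7 and Gimap9. Of all stretches of 31 bases in the transcripts, 13.2% of those of Gimap3 and 17.4% of those of Gimap5 were shared between both genes, and no other pair of members shared any. Values of Gimap3, which was the lowest of the family, are therefore uncertain. Gimap1 (ENSMUSG00000090019, 48739054 to 48743795) overlaps the antisense transcript Gimap1os over 2391 bases. The library kit keeps strand, but the strand setting used for counting is not given in the sources used here, so reads of Gimap1 and Gimap1os may not have been separated. A readthrough model, Gm28053, overlaps Gimap1, Gimap5 and Gimap7 on the same strand and was not analysed here.

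The 250 bases before the start site are shown for 3 members: Gimap6, the most abundant, Gimap7, called between the progenitors by edgeR at 3MO and not at 1MO, and Gimap8, whose difference had the opposite sign. The sequences are RefSeq's on GRCm38.p6, read 5′ to 3′ on the strand of the gene, at chr6:48708245-48708494 (minus strand), chr6:48718371-48718620 (plus strand) and chr6:48646984-48647233 (plus strand). Capitals mark matches on either strand to AGGAAG, one form of the site bound by ETS factors (CTTCCT when reversed), and TGTGGT, one form of the site bound by RUNX factors (ACCACA when reversed). Other forms of these sites were not searched.
Gimap6: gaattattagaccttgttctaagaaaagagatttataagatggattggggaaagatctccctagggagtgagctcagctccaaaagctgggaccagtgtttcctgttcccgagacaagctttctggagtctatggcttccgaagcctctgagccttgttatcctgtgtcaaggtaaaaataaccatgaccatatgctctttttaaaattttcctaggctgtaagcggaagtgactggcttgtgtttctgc
Gimap7: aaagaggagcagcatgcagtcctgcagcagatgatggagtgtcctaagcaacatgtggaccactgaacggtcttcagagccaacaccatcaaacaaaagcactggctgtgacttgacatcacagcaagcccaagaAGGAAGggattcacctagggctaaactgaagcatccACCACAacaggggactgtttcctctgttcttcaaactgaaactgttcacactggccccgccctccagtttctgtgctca
Gimap8: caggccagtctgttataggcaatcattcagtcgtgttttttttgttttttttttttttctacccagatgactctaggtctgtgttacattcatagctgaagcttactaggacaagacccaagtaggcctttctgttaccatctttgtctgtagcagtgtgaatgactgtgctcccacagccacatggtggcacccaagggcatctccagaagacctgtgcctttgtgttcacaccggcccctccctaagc
Gimap7 held one AGGAAG match 115 bases and one TGTGGT match 79 bases before its start, and neither hexamer occurred in the windows of Gimap6 and Gimap8. Windows of all 8 members were found, and 6 of 8 held AGGAAG or its reverse (all but Gimap6 and Gimap8), against 29.6% of 32536 windows of this length. TGTGGT or its reverse was in 3 of 8 (Gimap1, Gimap4 and Gimap7), against 14% of all windows. The E-box CAGCTG was in 0 of 8 (13.1% of all windows) and the Ikaros hexamer TGGGAA in 0 of 8 (21.6%). No match overlapped another in the windows of members. These are matches of letters, and no binding was measured.

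Gimap6, which encodes a partner of the autophagy protein Gabarapl2, was the most abundant member in every group. Its level was 223, 228 and 229 CPM in 1MO CLPs #1 to #3, 165, 146 and 184 in 3MO CLPs, 256, 203 and 316.5 in 1MO MPPs and 193, 158 and 203 in 3MO MPPs. All 3MO CLPs lay below all 1MO CLPs, whereas the MPPs of the 2 ages overlapped narrowly, at 203 CPM. Per kilobase of its median coding transcript, Gimap6 stood at 142 ± 1.93 CPM per kb in 1MO CLPs, 104 ± 12.1 in 3MO CLPs, 162 ± 35.6 in 1MO MPPs and 116 ± 14.8 in 3MO MPPs (SD, n = 3). It made up 43.7% to 56.2% of the family sum per kb in the 12 libraries.

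Below Gimap6, the order per kb of transcript held Gimap1 and Gimap9 in places 2 and 3 in all 4 groups. In 1MO CLPs Gimap9 stood at 48.3 ± 13.4 CPM per kb and Gimap1 at 41.2 ± 8.36 (SD, n = 3), and their libraries overlapped. Gimap1 was in place 2 in the other 3 groups, at 53.2 ± 15.2 CPM per kb in 1MO MPPs, 36.4 ± 1.58 in 3MO CLPs and 35.1 ± 5.46 in 3MO MPPs, and it overlapped Gimap9 in both 3MO groups but not in 1MO MPPs. The middle of the order depended on the cell type. Gimap7 came in place 4 in CLPs of both ages, above Gimap8 and Gimap5 with no overlap, and in place 6 in MPPs, below both, though it overlapped Gimap5 in 1MO MPPs. These places rest on the lengths used as divisors. The median coding transcripts of Gimap7 and Gimap4, 846 and 900 bases, were shorter than their longest coding sequences of 879 and 984 bases. Their levels per kb may thus be too high, and other lengths could move their places and overlaps. Gimap8 and Gimap5 overlapped each other in CLPs and were apart in MPPs, Gimap8 being the higher. Other neighbours in the order that overlapped were Gimap9 and Gimap7 in 3MO CLPs, Gimap9 and Gimap8 in 1MO MPPs, Gimap5 and Gimap4 in CLPs of both ages, and Gimap7 and Gimap4 in 1MO MPPs. Gimap4 was in place 7 and Gimap3 in place 8 in every group, Gimap3 at 0.185 to 2.08 CPM per kb on average.

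**Figure D1:**
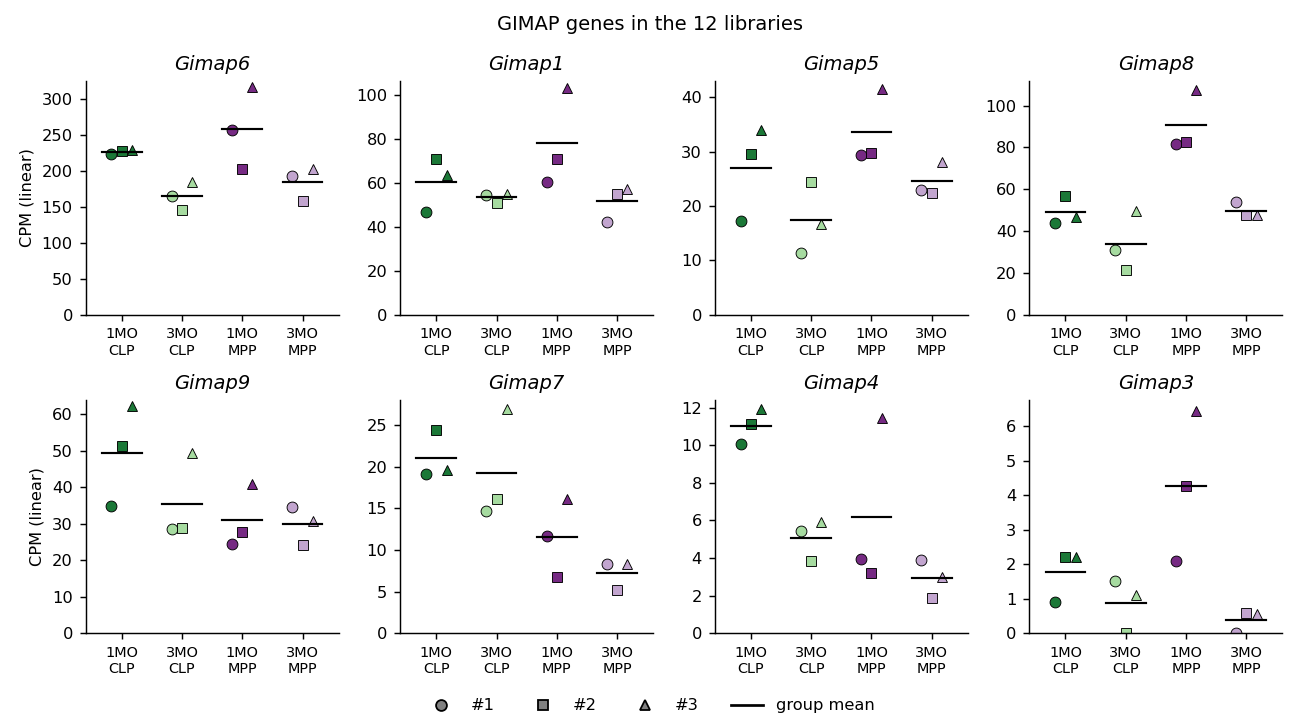
Level of each GIMAP gene (CPM on a linear axis starting at 0) in the 12 libraries by group, with the library number as the symbol and a bar at the mean of 3 libraries. The 1MO MPP library #3 (dark purple triangle) is the highest of the 3 1MO MPPs in all 8 panels, and Gimap7 sits higher in the CLPs than in the MPPs of the same age.

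Among CLPs, every member had a lower mean level at 3MO than at 1MO, but none passed the test. The log2 difference (3MO minus 1MO, edgeR) was negative for 8 of 8 members, where 51.2% of all tested genes were negative, and its median was -0.51 against -0.01 over all genes. Members share a locus and the same 6 libraries, so they are not independent of each other. By the edgeR quasi-likelihood test, with p adjusted after Benjamini and Hochberg over all genes, 0 of 8 members were called, against 0.0748% of all genes, with adjusted p from 0.785 to 0.989. At an unadjusted p under 0.05, 1 member was lower (Gimap6), against 2.94% of genes, and DESeq2 called 0 members, against 0.452% of genes. All 3MO libraries lay below all 1MO libraries for 2 members, Gimap4 and Gimap6, against 6.13% of genes. In bulk RNA, fewer cells expressing a gene and less RNA per cell cannot be told apart.

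Gimap4 and Gimap6 were the CLP genes whose ages did not overlap. Gimap4 (ENSMUSG00000054435, 48684549 to 48692060), known for its part in the timing of T cell apoptosis, was at 10.1, 11.1 and 11.9 CPM in 1MO CLPs and at 5.45, 3.87 and 5.93 CPM in 3MO CLPs. Every 3MO value was below every 1MO value, on 54 to 225 counts per library. The log2 difference was -1.12 (standard error 0.54, 95% interval -2.26 to 0.02, adjusted p = 0.853 in edgeR). For Gimap6 (ENSMUSG00000047867, 48701582 to 48708225) it was -0.46 (standard error 0.17, 95% interval -0.83 to -0.09, adjusted p = 0.785 in edgeR), on 1639 to 4615 counts per CLP library. In the 6 fits that each left out 1 CLP library, the log2 difference stayed between -1.25 and -0.96 for Gimap4 and between -0.54 and -0.37 for Gimap6.

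Gimap5 and Gimap8 had differences of a like size with overlapping libraries. Gimap5 (ENSMUSG00000043505, 48746197 to 48754210), needed for lymphocyte survival and quiescence, was at 17.2, 29.6 and 33.9 CPM in 1MO CLPs and at 11.3, 24.3 and 16.7 CPM in 3MO CLPs, a log2 difference of -0.62 (95% interval -1.30 to 0.06). Gimap8, the large member with several GTPase domains, was at 44.0, 56.8 and 46.7 CPM in 1MO CLPs and at 31.2, 21.2 and 49.4 CPM in 3MO CLPs, a log2 difference of -0.54 (95% interval -1.09 to 0.02). The 3MO CLP library #3 was the highest of its group for Gimap8 and lay within the range of the 1MO CLPs. The size of both differences depended on single libraries. For Gimap8 it was -0.29 without the 3MO CLP library #2 and -0.91 without #3, and for Gimap5 it was -0.40 without the 3MO CLP library #1 and -0.94 without #2. Gimap9 (ENSMUSG00000051124, 48676129 to 48679114) was at 34.9, 51.3 and 62.1 CPM in 1MO CLPs and at 28.5, 28.8 and 49.3 in 3MO CLPs, a log2 difference of -0.48 that was -0.28 without the 1MO CLP library #3 and -0.79 without the 3MO CLP library #3.

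Gimap1, which mature lymphocytes need to survive, and Gimap7, a GTPase activated by dimerisation, had the smallest age differences in CLPs. Gimap1 was at 47.0, 70.9 and 63.5 CPM in 1MO CLPs and at 54.7, 50.7 and 54.8 CPM in 3MO CLPs, a log2 difference of -0.18 (95% interval -0.67 to 0.30) that was -0.33 without the 1MO CLP library #1 and -0.05 without #2. Gimap7 was at 19.1, 24.4 and 19.5 CPM in 1MO CLPs and at 14.6, 16.1 and 27.0 CPM in 3MO CLPs, a log2 difference of -0.13 (95% interval -0.90 to 0.65). Its 3MO libraries spanned both sides of the 1MO range, and without the 3MO CLP library #1 the sign of the difference turned (log2 difference 0.02). Gimap3 (ENSMUSG00000039264, 48764464 to 48770851), linked to the segregation of mitochondrial DNA in leukocytes, had 10, 45 and 35 counts in 1MO CLPs and 15, 0 and 14 counts in 3MO CLPs. The count of 0 in the 3MO CLP library #2 allows up to 0.163 CPM by counting error (3 counts over the library's total count, before TMM normalization). This limit does not cover reads that may have been assigned to the close paralog Gimap5.

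Among MPPs, the members were again lower at 3MO on average, and the size of that difference leaned on 1 library. The log2 difference was negative for 8 of 8 members, against 51.8% of all genes, with a median of -0.64 against -0.01 over all genes. By edgeR 0 of 8 members were called, against 0.0224% of genes, and every adjusted p was 1. At an unadjusted p under 0.05, 4 members were lower (Gimap1, Gimap3, Gimap6 and Gimap8), against 1.41% of genes, and DESeq2 called 0 members, against 0.255% of genes. All 3MO MPPs lay below all 1MO MPPs for 4 members (Gimap1, Gimap3, Gimap5 and Gimap8), against 4.61% of genes.

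The 1MO MPP library #3 was the highest of the 3 1MO MPPs for 8 of 8 members, while 37.5% of all tested genes were highest in that library. It was also the highest of all 12 libraries for 5 members. Its erythroid marker sum was 172 CPM, against 45.2 and 26.3 in 1MO MPPs #1 and #2. Without this library, 7 of 8 members had a negative log2 difference (49.1% of genes), the median was -0.33, 1 member, Gimap8, remained lower at an unadjusted p under 0.05 (1.34% of genes), and edgeR called 0 members. As it was the highest 1MO MPP for every member, leaving it out was bound to make the differences less negative. Fewer libraries also weaken the test.

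Gimap8 had the smallest unadjusted p of the members for age in MPPs. Its level was 81.7, 82.4 and 107 CPM in 1MO MPPs and 53.8, 47.8 and 47.8 CPM in 3MO MPPs, and the lowest 1MO library stood well above the highest 3MO library. The log2 difference was -0.86 (standard error 0.26, 95% interval -1.42 to -0.31, unadjusted p = 0.0045 and adjusted p = 1 in edgeR), and -0.72 without the 1MO MPP library #3. Counts behind these values were 509 to 1783 per library.

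Gimap1 and Gimap6 had smaller differences and smaller standard errors. Gimap1 was at 60.4, 70.8 and 103 CPM in 1MO MPPs and at 42.4, 54.8 and 57.4 CPM in 3MO MPPs, a log2 difference of -0.60 (standard error 0.23), and -0.35 without the 1MO MPP library #3. For Gimap6 the log2 difference was -0.49 (standard error 0.17), and -0.31 without that library. Both genes therefore kept their sign, and neither had an unadjusted p under 0.05 in edgeR without it.

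The other members were less certain in MPPs. Gimap3 had 26, 39 and 107 counts in 1MO MPPs and 0, 8 and 8 counts in 3MO MPPs, or 2.09, 4.28 and 6.45 against 0, 0.576 and 0.567 CPM. These are few reads of a gene with a close paralog, and the log2 difference of -3.42 had a standard error of 1.39. Gimap5 was at 29.3, 29.7 and 41.5 CPM in 1MO MPPs and at 22.9, 22.4 and 28.1 CPM in 3MO MPPs, a narrow gap with no overlap. Gimap4 was at 3.94, 3.18 and 11.4 CPM in 1MO MPPs and at 3.91, 1.87 and 2.98 CPM in 3MO MPPs, and its log2 difference went from -1.10 to -0.29 without the 1MO MPP library #3. Gimap7 was at 11.7, 6.80 and 16.1 CPM in 1MO MPPs and at 8.35, 5.18 and 8.29 CPM in 3MO MPPs, with log2 differences of -0.67 with that library and -0.35 without it. Gimap9 was at 24.4, 27.8 and 40.9 CPM in 1MO MPPs and at 34.5, 24.2 and 30.8 CPM in 3MO MPPs, and its log2 difference turned from -0.06 to 0.19 without that library.

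**Figure D2:**
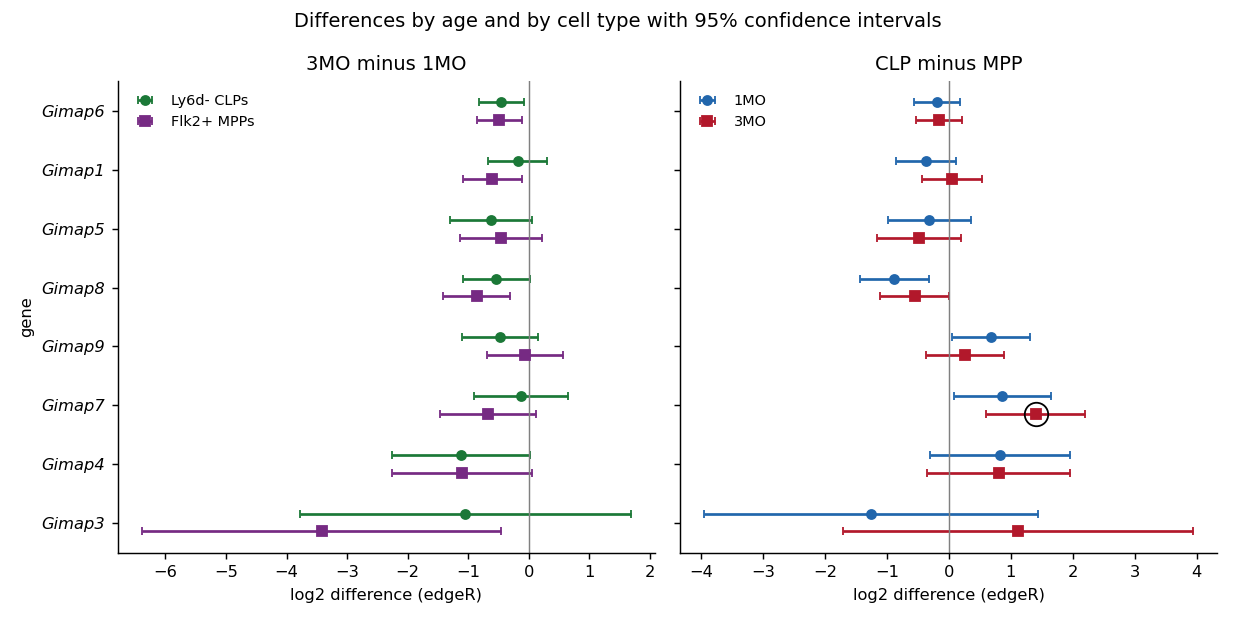
Log2 differences of the 8 members (edgeR) with 95% confidence intervals, for 3MO minus 1MO in each cell type (left) and CLP minus MPP at each age (right). All 16 age differences lie below 0, most intervals reach past 0, and the circle marks Gimap7 at 3MO, the single difference with an adjusted p under 0.05.

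Whether the age difference was of unlike size in CLPs and MPPs was tested as an interaction. By edgeR 0 of 8 members were called, against 0% of all genes, with adjusted p of 1.00 for each member. At an unadjusted p under 0.05 there were 0 members, against 3.21% of genes, and DESeq2 called 0 members, against 0.0396% of genes. The interaction (age difference in CLPs minus that in MPPs) ranged from a log2 value of -0.42 for Gimap9 (-0.73 without the 3MO CLP library #3 and -0.22 without the 1MO CLP library #3) to 2.37 for Gimap3, and the 95% interval of each member spanned 0. For Gimap6, the best measured, it was 0.03 (95% interval -0.50 to 0.55).

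Between the progenitors, Gimap7 was the member called as higher in CLPs. At 3MO its level was 14.6, 16.1 and 27.0 CPM in CLPs and 8.35, 5.18 and 8.29 CPM in MPPs, so all CLPs lay above all MPPs. The log2 difference was 1.40 (standard error 0.38, 95% interval 0.61 to 2.20), a 2.65-fold higher level in CLPs, with an adjusted p = 0.0362 in edgeR's quasi-likelihood test. It was the 1 of 8 members called at 3MO, against 6.07% of all genes, or 2.73% called as higher in CLPs. DESeq2 called the same member and no other, against 10.2% of genes. At 1MO, Gimap7 was at 19.1, 24.4 and 19.5 CPM in CLPs and at 11.7, 6.80 and 16.1 CPM in MPPs, again with no overlap, and the log2 difference was 0.86 (standard error 0.37, adjusted p = 0.248 in edgeR). The call at 3MO was lost when any of 5 of the 6 3MO libraries was left out (adjusted p from 0.0538 to 0.163 in edgeR, the highest without the 3MO CLP library #3) and held without the 3MO CLP library #1 (adjusted p = 0.0434). The log2 difference in these 6 fits was 1.08 to 1.57. In edgeR the call was also lost with every library thinned to the smallest total (adjusted p = 0.0539). It was lost too in edgeR with only the 3MO libraries fitted (adjusted p = 0.101).

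Gimap8 had the opposite sign. At 1MO it was at 44.0, 56.8 and 46.7 CPM in CLPs and at 81.7, 82.4 and 107 CPM in MPPs, and all CLPs lay below all MPPs. The log2 difference was -0.88 (standard error 0.26, 95% interval -1.43 to -0.33), with an adjusted p = 0.0633 in edgeR, so it was not called, whereas DESeq2 called it (adjusted p = 0.0213). At 3MO the CLPs, at 31.2, 21.2 and 49.4 CPM, overlapped the MPPs, at 53.8, 47.8 and 47.8 CPM, and the log2 difference was -0.55 (95% interval -1.11 to -0.00083, adjusted p = 0.262 in edgeR). Without the 3MO CLP library #3, which was the high one, it was -0.93 and was called (adjusted p = 0.0470 in edgeR), and without the 3MO CLP library #2, the low one, it was -0.30 (adjusted p = 0.596 in edgeR).

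At 1MO, 0 of 8 members were called by edgeR, against 5.38% of all genes. DESeq2 called 1 member, Gimap8, against 9.23% of genes, and 3 members (Gimap7, Gimap8 and Gimap9) had an unadjusted p under 0.05 in edgeR, against 15.8% of genes. The libraries of CLPs and MPPs did not overlap for 2 members at 1MO (Gimap7 and Gimap8), against 24.9% of genes, and for 1 at 3MO (Gimap7), against 21.8%. At 3MO, 2 members (Gimap7 and Gimap8) had an unadjusted p under 0.05, against 19% of genes. The share of members without overlap at 1MO was thus near that of all genes.

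The other 6 members were not called between the cell types. Gimap9 was higher in CLPs at 1MO by a log2 difference of 0.67 (95% interval 0.04 to 1.30, adjusted p = 0.269 in edgeR) and by 0.25 at 3MO (95% interval -0.38 to 0.88). The 3MO value was -0.06 without the 3MO CLP library #3 and 0.40 without #1. Gimap4 had log2 differences of 0.83 at 1MO and 0.80 at 3MO, with intervals from -0.30 to 1.96 and from -0.35 to 1.96. Its 1MO value was 1.63 without the 1MO MPP library #3 and 0.52 without #2. Gimap6, measured on the most reads, had log2 differences of -0.19 (95% interval -0.56 to 0.18) at 1MO and -0.16 (95% interval -0.54 to 0.21) at 3MO, and its 1MO value was -0.02 without the 1MO MPP library #3 and -0.34 without #2. Gimap1 had -0.37 (-0.11 without the 1MO MPP library #3) and 0.05. Gimap5 had -0.31 and -0.49, which with 1 library left out ranged from -0.52 to -0.08 and from -0.81 to -0.25. Gimap3 had -1.25 and 1.12, with a standard error of 1.27 or more, and ranged from -1.58 to -0.83 and from 0.46 to 1.71.

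**Figure D3:**
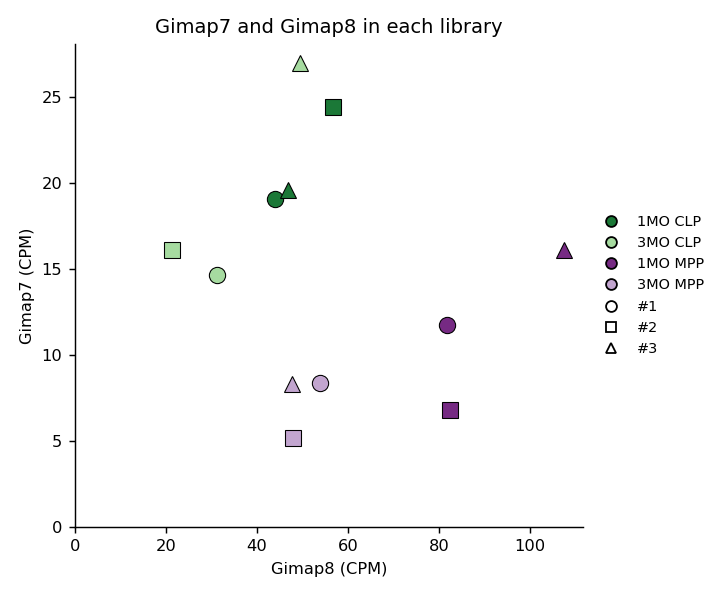
Gimap7 (vertical axis) against Gimap8 (horizontal axis) in the 12 libraries, both in CPM on linear axes from 0, with groups as colours and library numbers as symbols. Each of the 6 CLP libraries holds more Gimap7 for its Gimap8 than any of the 6 MPP libraries, at both ages.

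Gimap7 and Gimap8 were taken as a pair because of these differences, so their shares of the summed level per kb describe the same contrast in the same libraries and add no test to it. Gimap7 made up 8.57%, 9.10% and 7.29% of the family in 1MO CLPs and 8.29%, 9.68% and 12.1% in 3MO CLPs, against 4.85%, 3.12% and 4.77% in 1MO MPPs and 4.35%, 3.13% and 4.09% in 3MO MPPs. Gimap8 made up 5.33%, 5.71% and 4.69% in 1MO CLPs and 4.76%, 3.44% and 5.96% in 3MO CLPs, against 9.10%, 10.2% and 8.58% in 1MO MPPs and 7.56%, 7.80% and 6.35% in 3MO MPPs. For both genes the 6 CLP libraries lay apart from the 6 MPP libraries. Shares and sums per kb rest on the transcript lengths used, which may be too short for Gimap7 and Gimap4. The sum of all 8 members was 446 ± 43.6 CPM in 1MO CLPs, 330.5 ± 51.3 in 3MO CLPs, 514 ± 114 in 1MO MPPs and 351 ± 32.7 in 3MO MPPs (SD, n = 3). On this scale the highest 3MO library lay below the lowest 1MO library in either cell type, 388 against 396 CPM in CLPs and 379 against 428 CPM in MPPs. Summed per kb, the ages overlapped in CLPs, where 3MO CLP #3 stood at 264 and 1MO CLP #1 at 263 CPM per kb, and did not in MPPs (239.7 against 258).

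Members varied together to unlike degrees. Over the 12 libraries, Pearson's r of log2 CPM was positive for 26 of 28 pairs of members, with a median of 0.42. The highest values were 0.82 for Gimap4 and Gimap7, 0.81 for Gimap1 and Gimap3 and 0.81 for Gimap6 and Gimap8, and the lowest was -0.17 for Gimap7 and Gimap8. These libraries share 4 groups, a normalization and, for neighbours, a locus, and the values describe these libraries without a test. Gimap4, Gimap7 and Gimap9, the 3 members that were higher in CLPs at both ages by their log2 differences, had r of 0.73 to 0.82 with one another. Choosing them by that shared sign, in the same libraries, fixes these values in part. The 3MO sign of Gimap9 also turned without the 3MO CLP library #3.

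Of all other tested genes with a mean of at least 10 CPM, the 5 whose log2 CPM followed the mean of the 8 members most closely over the 12 libraries were Rer1 (r = 0.88), Mrgbp (r = 0.87), Fam43a (r = 0.85), Yme1l1 (r = 0.84) and Puf60 (r = 0.84). The members themselves had r from 0.50 (Gimap5) to 0.86 (Gimap3) with that mean, of which each is a part. The log2 differences of Rer1, Mrgbp, Fam43a, Yme1l1 and Puf60 with age, which this choice fixes in part, were -0.47 to -0.17 in CLPs and -0.64 to -0.24 in MPPs.

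Genes whose products act with or beside GIMAP proteins were listed for comparison. The list held 14 genes of the Bcl2 family, the Gabarap and LC3 group of autophagy proteins, GSK3 and calmodulin, and all 14 were tested. With age 0 of 14 were called in either cell type, 9 of 14 had a negative log2 difference in each (51.2% of all genes in CLPs and 51.8% in MPPs), and the median was -0.16 in CLPs and -0.17 in MPPs. Between the cell types edgeR called 1 of 14 at 1MO and 2 of 14 at 3MO, all higher in CLPs, where it called 5.38% and 6.07% of all genes in either direction, with a median log2 difference of 0.18 at 1MO and 0.19 at 3MO. Bcl2, which protects lymphocytes from apoptosis, was higher in CLPs than in MPPs at 1MO (528 ± 50.7 against 186 ± 52.6 CPM, SD, n = 3, log2 difference 1.51, adjusted p = 0.00015 in edgeR) and at 3MO (614 ± 20.4 against 273 ± 19.6 CPM, log2 difference 1.17, adjusted p = 0.00122 in edgeR). Bcl2l11, which encodes the pro-apoptotic Bim, was higher in CLPs at 3MO (77.3 ± 26.9 against 36.8 ± 7.02 CPM, adjusted p = 0.0488 in edgeR). Gabarapl1, an autophagy gene, had log2 differences of -0.49 at 1MO and -0.71 at 3MO (adjusted p = 0.224 and 0.0501 in edgeR).

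Another family of immune GTPases, those induced by interferon, was listed as well. Of 14 listed genes 12 were analysed, and edgeR called 4 of 12 between the cell types at each age, 2 higher and 2 lower in CLPs, against 5.38% of all genes at 1MO and 6.07% at 3MO. Gbp2, a guanylate-binding protein, was at 10.8 ± 2.97 CPM in 1MO CLPs and 41.5 ± 3.96 in 1MO MPPs (log2 difference -1.94, adjusted p = 0.00076 in edgeR), and Iigp1 at 9.04 ± 2.42 and 38.1 ± 7.80 (log2 difference -2.07, adjusted p = 0.00081 in edgeR). Gbp8 was higher in 1MO CLPs, at 19.2 ± 6.61 against 4.22 ± 1.09 CPM (log2 difference 2.19, adjusted p = 0.0058 in edgeR). With age 0 of 12 were called, and the median log2 difference was 0.14 in CLPs and -0.10 in MPPs, against -0.51 and -0.64 for the GIMAP genes.

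The genes around the cluster gave a further comparison. Within 100 kb on either side of the outermost members and between them, 15 other genes were in the table and 10 were tested. Their median age difference was -0.03 in CLPs, with 5 of 10 negative, and -0.28 in MPPs, with 6 of 10 negative, and edgeR called 0. Inside the cluster, Gimap1os had log2 differences of -0.68 (standard error 0.58) in CLPs and -0.49 (standard error 0.58) in MPPs, and 4833403J16Rik had 0.22 (standard error 0.50) and -1.16 (standard error 0.50). Just before Gimap8, AI854703 had a positive difference of 1.80 (standard error 0.56) in CLPs. Repin1, a well measured gene of the flank at 86.5 to 94.6 CPM on average, had 0.00 in CLPs and 0.04 in MPPs (standard error 0.18 for both).

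**Figure D4:**
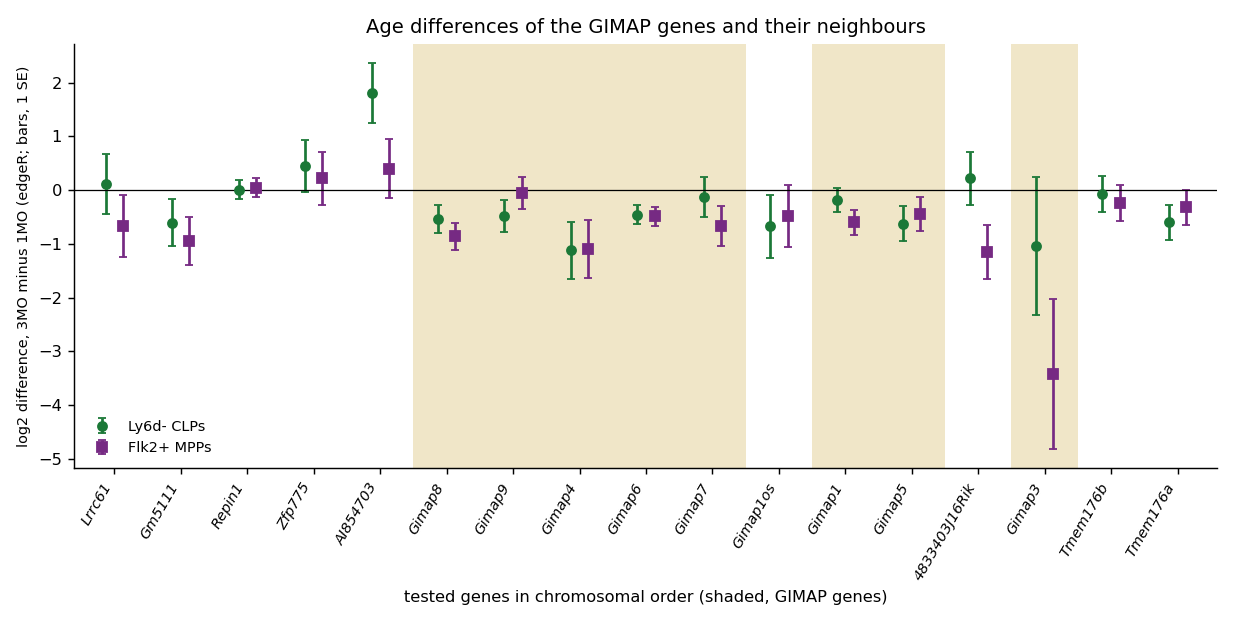
Log2 differences 3MO minus 1MO (edgeR, bars 1 standard error) of the 8 GIMAP genes (shaded) and 9 tested neighbours, placed in chromosomal order and not to distance, with CLPs as circles and MPPs as squares. All shaded points lie below 0, while neighbours lie on both sides, and the sparse Gm7932, a further tested neighbour at 1.51 CPM at most, is left off because its standard error in CLPs was 2.32.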

How the data were processed

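RNA sequencing of 12 BM libraries was analysed from one table of estimated counts per gene that the authors deposited, length-scaled in their pipeline but not corrected for library depth. Per the study's methods and the submitters' processing notes, polyadenylated RNA was prepared with a directional kit and reads were processed in an nf-core pipeline with UMI-tools, Trim Galore, STAR and Salmon on mm10. Columns were matched to samples by name, with 0 unmatched.

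Counts were rounded and tested in R 4.3.3 with edgeR 4.0.16 (filterByExpr, TMM, quasi-likelihood test, one fit of 4 groups, Benjamini-Hochberg adjusted p under 0.05 over 13367 genes). DESeq2 1.42.0, the tool the study names, was an alternative. CPM are TMM-normalized. Correlations used log2 CPM with a prior count of 2. Scripts were tested on simulated data. Positions came from GENCODE M21 and windows from RefSeq (Python 3.11.15, Biopython 1.88). No pair of replicates held identical counts, and each pair differed by more than sampling noise. Intervals and count limits cover the spread between libraries and counting error respectively, and nothing further.

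The members and all gene lists were chosen with earlier results of these data known. Named genes are the 8 members, the 5 genes most correlated with their mean (at least 10 CPM), genes within 100 kb, the 3 genes of smallest p (1MO CLP minus MPP) of 4 lists, and 7 defining markers, of which 1 is not reported here. Other genes named were chosen after their values were seen. Hba-a1 reached 31.3 CPM. The alternatives are in the closing section.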

Additional observations from a re-analysis of the deposited data

How the results depend on the processing

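Other settings tried were size factors after DESeq2, a fit of every gene with a count, every library thinned to the smallest total, fits of only the libraries compared, DESeq2's Wald test, a replicate block, CLPs and MPPs paired by age and number, and each library left out in turn. Apart from the fits with a library left out, 249 member differences kept their sign and side of the threshold, 4 gained a call, 2 lost one and 0 changed sign.

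At 1MO, the number of members called between CLPs and MPPs went from 0 to 1, Gimap8, without a filter (adjusted p = 0.0285 in edgeR), with only the libraries compared (0.0193), with DESeq2 (0.0213) and with the replicate block (0.0496). At 3MO it went from 1 to 0 with thinned libraries (Gimap7, adjusted p = 0.0539 in edgeR) and with only the libraries compared (0.101), where Gimap3 was not tested, and it was 0 to 1 with a library left out. Pairing CLPs and MPPs by age and number left Gimap8 uncalled at 1MO (0.0522). Deviations from the group means correlated at -0.03 to 0.21 between same-numbered libraries, and the numbers were not taken as pairs in the main fit. Such correlations cannot show that the numbers are no pairs. The study's methods describe sorting both populations per mouse, and the erythroid markers were highest in the libraries numbered #3. Whether same-numbered libraries share mice is not given. The block moved no other call of a member, and calls over all genes went to 11, 3, 915, 1007 and 0.

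With a library left out, the sign of some differences turned, none of them called in any fit. The log2 difference with age ranged from -0.45 to 0.025 for Gimap7 in CLPs and from -0.21 to 0.19 for Gimap9 in MPPs. The 3MO difference between CLPs and MPPs ranged from -0.060 to 0.40 for Gimap9 and from -0.073 to 0.13 for Gimap1. The interaction ranged from -0.83 to 0.29 for Gimap4, from -0.49 to 0.049 for Gimap5, from -0.14 to 0.18 for Gimap6 and from -0.049 to 0.58 for Gimap8. The cause was not tested.

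Over all genes, calls for age in CLPs, age in MPPs, CLP minus MPP at 1MO and at 3MO, and the interaction were 10, 3, 719, 812 and 0. They were 46, 26, 903, 1061 and 6 without a filter, and 65, 35, 1237, 1438 and 7 with DESeq2. With only the libraries compared they were 4, 4, 900 and 435. With a library left out they were 6 to 10, 3 to 5, 460 to 623, 553 to 669 and 0 to 1. With 3 libraries a group, and p-values that measure the spread between these libraries, low counts limit Gimap3 (0 to 107 per library) and Gimap4 (26 to 225).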
